A study of Mus musculus with 6 samples.

Results

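The genes described are 10 that mouse endothelium uses to answer blood flow or inflammation, chosen by name from a table of 29757 gene lines. Of these, 4 are induced by steady flow (Klf2, Klf4, Nos3 and Thbd) and 6 are associated with endothelial activation (Edn1, Vwf, Sele, Selp, Vcam1 and Icam1). All 10 had a row, and 9 passed the filter on low counts, which left 17686 tested genes. Sele did not pass that filter and is described by its counts. Lungs of balb/c mice were sequenced in bulk at day 0 (D0) or 14 days (D14) following orthotopic implantation with K7M2, a metastatic osteosarcoma line of mouse origin. Each day had 3 libraries, which the labels number as biological replicates. The labels give neither the animals' age or sex nor how many mice went into a library, and the text on extraction names bone marrow-derived macrophages (BMDMs) where the tissue label says lungs. P-values therefore measure the spread between these libraries, and how much of it lies between mice is not known. There was no D14 group without implanted cells among the samples, so effects of tumour, procedure, age and collection day cannot be told apart.

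Endothelial cells sense the drag of flowing blood. Steady laminar flow activates the kinases MEK5 and ERK5, which act through MEF2 factors to induce the zinc finger transcription factors KLF2 and KLF4. These raise genes that keep the vessel wall dilated, anticoagulant and non-adhesive, such as the nitric oxide synthase Nos3 and thrombomodulin, Thbd, and they restrain inflammatory genes. Inflammatory cytokines act largely through NF-kB to induce the adhesion molecules E-selectin (Sele), VCAM-1 and ICAM-1, which slow, hold and pass leukocytes out of the blood. P-selectin (Selp) and von Willebrand factor (Vwf) are stored together in Weibel-Palade bodies and released within moments of activation, and endothelin 1 (Edn1) is a peptide that constricts vessels. The lung differs from most beds in that ICAM-1 is abundant without inflammation, also on alveolar epithelium.

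Sequences upstream of the 2 factors and of 2 activation genes, picked after the values were seen, are shown for the matches they hold to motifs known from flow-induced or NF-kB-induced genes. RefSeq promoters on GRCm38.p6 were found for 6 of the 10 genes (all but Nos3, Thbd, Vwf and Vcam1). Each sequence is the first 250 bases of the RefSeq promoter entry, and both strands were searched. Positions are counted back from the base that follows these 250, here called the start. That start can differ from the GENCODE gene positions given below. The Klf2 window runs past the GENCODE start of Klf2, and the Icam1 window ends short of that of Icam1. Capitals mark CTA, any 4 bases, then TAG (a MEF2 core) in Klf2, GGGCGG (a GC box) in Klf4, GGNNNTTCC (a Rel-type site) in Icam1, and GAGACC (an element described in shear-responsive promoters) in Edn1. The Klf2 window is chr8:72318812-72319061 on the plus strand, and that of Klf4 chr4:55532476-55532725 on the minus strand. The Icam1 window is chr9:21015690-21015939 and the Edn1 window chr13:42301226-42301475, both on the plus strand.
Klf2: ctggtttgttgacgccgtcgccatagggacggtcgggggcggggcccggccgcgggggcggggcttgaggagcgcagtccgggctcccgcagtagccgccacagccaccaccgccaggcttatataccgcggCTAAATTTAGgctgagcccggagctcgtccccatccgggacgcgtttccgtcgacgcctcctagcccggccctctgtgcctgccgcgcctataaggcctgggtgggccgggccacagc
Klf4: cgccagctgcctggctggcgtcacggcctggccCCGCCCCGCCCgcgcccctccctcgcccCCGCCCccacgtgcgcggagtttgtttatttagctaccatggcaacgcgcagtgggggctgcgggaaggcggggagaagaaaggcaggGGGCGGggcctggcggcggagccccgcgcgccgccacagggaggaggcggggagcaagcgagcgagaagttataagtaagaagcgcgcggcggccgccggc
Icam1: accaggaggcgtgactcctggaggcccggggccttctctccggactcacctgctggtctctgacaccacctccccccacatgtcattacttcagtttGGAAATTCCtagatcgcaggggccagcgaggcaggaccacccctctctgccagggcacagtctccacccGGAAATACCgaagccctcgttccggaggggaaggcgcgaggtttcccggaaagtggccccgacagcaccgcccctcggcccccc
Edn1: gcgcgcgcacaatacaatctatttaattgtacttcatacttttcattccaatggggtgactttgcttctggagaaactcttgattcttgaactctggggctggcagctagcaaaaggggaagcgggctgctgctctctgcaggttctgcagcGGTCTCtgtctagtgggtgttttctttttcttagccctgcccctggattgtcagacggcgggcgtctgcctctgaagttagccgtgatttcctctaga

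The MEF2 core was present in the Klf2 window, from base −118 to base −109 before the start, and in 3.2% of 32851 promoter windows of the same length. No such match lay in the other 5 windows, Klf4 included. The Klf4 window held the GC box at 4 places, and those of Klf2 and Icam1 held it too, against 32.7% of all windows. Icam1 held the Rel-type site from −153 to −145 (GGAAATTCC, which reads as a match on both strands) and from −84 to −76, and Sele and Selp held it too, against 15.7% of all windows. The GAGACC element lay in Edn1, Icam1 and Selp, each time on the minus strand, against 13.7% of windows. CACCC, the core bound by Krueppel-like factors, was found in 52% of windows and in those of Klf2, Edn1, Icam1 and Selp. A looser NF-kB core (GGG, any 5 bases, CC) was found in 45.8% of windows and in all 6 except that of Edn1. TGANTCA, an AP-1 core, lay in Sele and Selp against 6.75% of windows, and TATAAA in Sele against 12.4%. None of these motifs was found in all 4 printed windows, and those of Klf4 and Edn1 had none in common. The letters describe the windows, and binding was not measured.

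Library totals ran from 14878101 to 17385006 counts, so 3 counts in a library correspond to 0.174 to 0.211 CPM (counts scaled to a common library size with TMM factors), a limit for counting error only. Marker genes were those of lung: Sftpc, surfactant protein C of the alveolar epithelium, had 12450 to 34630 CPM. The macrophage gene Adgre1, chosen after its values were seen, had 16.9 to 26.2 CPM. Other macrophage genes were higher, such as Csf1r with 133 to 177 CPM. The sum of 8 monocyte and macrophage genes was 301 to 455 CPM. All 16 endothelial identity genes (among them Pecam1, Cdh5, Tie1 and Erg) were tested. D0 replicate 3 stood apart from the rest. Its log2 CPM correlated with the other libraries at 0.919 to 0.955 (Pearson's r across genes, which are not independent), against 0.956 to 0.970 among the others. It had the lowest summed level of endothelial identity genes, 4024 CPM, against 7416 and 5218 CPM in D0 replicates 1 and 2 and 7632 to 8152 CPM in the D14 libraries. It also had the highest sum of 5 red cell genes, 52460 CPM against 9237 to 28890 CPM elsewhere. In bulk libraries, fewer cells of a type and less RNA per cell cannot be told apart.

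None of the 9 tested genes passed an adjusted p of 0.05 over all tested genes at D14 against D0 (edgeR quasi-likelihood test with Benjamini-Hochberg adjustment), where 0.0339% of all tested genes did. All 4 flow-induced genes had higher D14 means, by a median log2 fold change of 0.55. With each library left out that median was 0.52 to 0.84, highest without D0 replicate 1. Of the 5 tested activation genes 3 were higher and 2 lower, with a median of 0.34. The median over all tested genes was −0.03, and 46.9% of them had a value above 0. For the 16 endothelial identity genes the median was 0.49. Klf4 stood out in size, with a mean at D14 that was 1.99 times that at D0. At an unadjusted p under 0.05 stood Klf4 and Thbd, 2 genes on the higher side, where 5.48% of tested genes stood there and 7.09% on the lower side. Library values did not overlap between the days for Klf4, Thbd and Vcam1, all higher at D14, and for Icam1, lower at D14. Such separation was seen in 10.9% of tested genes on the higher side and 10.7% on the lower side. DESeq2 on the same counts called 1 of the genes, Klf4, and 1.55% of all tested genes.

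**Figure D1:**
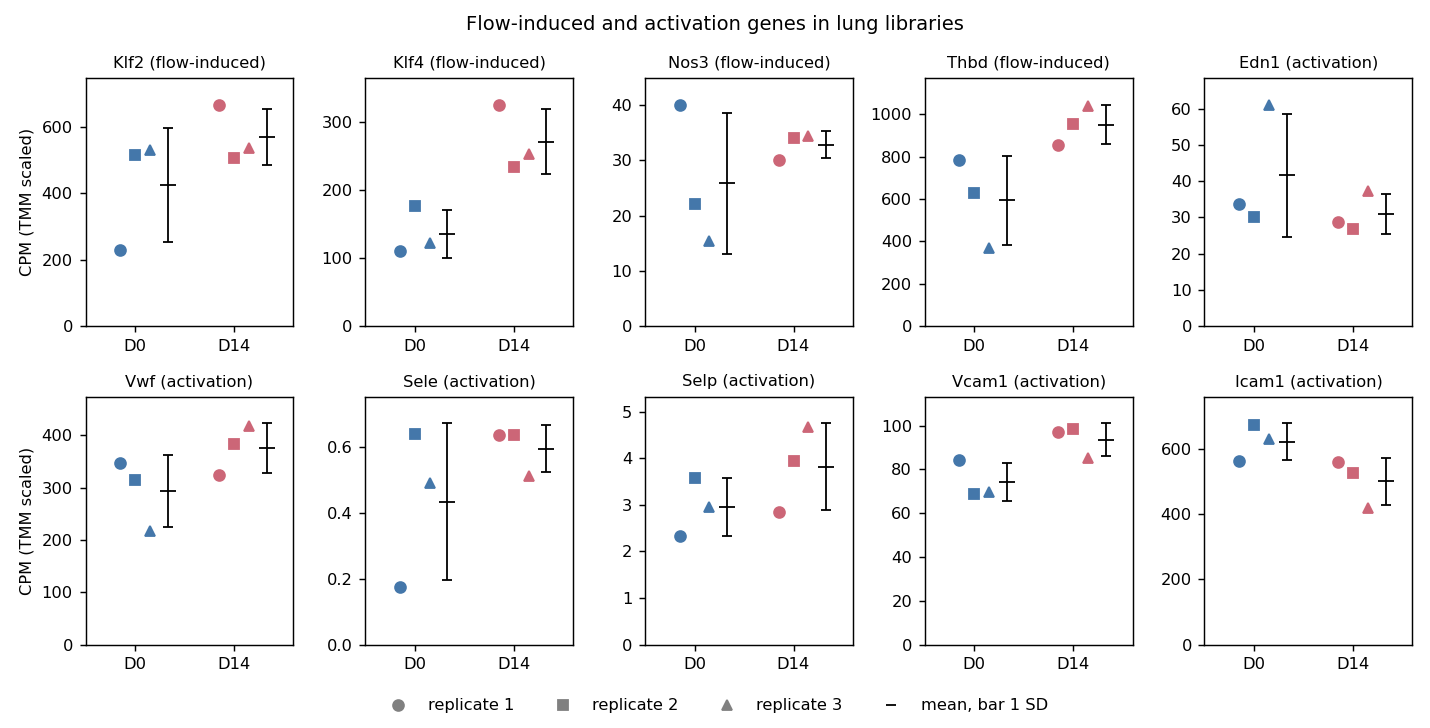
Level of each of the 10 genes in CPM (TMM scaled, linear axes from 0) in the 3 D0 and 3 D14 libraries; marker shape gives the replicate, and the bar is the mean with 1 SD. Klf4, Thbd and Vcam1 are higher in every D14 library than in any D0 library and Icam1 is lower, while Klf2 is low in D0 replicate 1 alone.

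Klf4 (chromosome 4, 55527143 to 55532466, minus strand; protein-coding, GRCm38) encodes the inducible factor of the flow response and is also made by monocytes and epithelium. Its levels were 110, 176 and 121 CPM on day 0, against 325, 234 and 253 CPM on day 14. Every D14 library was above every D0 library. The D14 libraries spread over a wider range in CPM, but less relative to their mean (SD of 17.7% of the mean against 25.9% at D0). Mean levels were 136 ± 35.2 and 271 ± 47.9 CPM (SD over 3 libraries), which gave a log2 fold change of 0.99 (SE 0.23, 95% interval 0.466 to 1.52; adjusted p = 0.326, edgeR). Its unadjusted p of 0.00269 (edgeR) ranked 138 among the tested genes. With DESeq2 the log2 fold change was 1.01 with an adjusted p of 0.00968, the 1 call among the 15 alternative settings, over which the log2 fold change ran from 0.85 to 1.23. The adjusted p ranged up to 0.725, without D14 replicate 3.

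Klf2 (chromosome 8, 72319033 to 72321656, plus strand), the paralogue that is most tightly tied to laminar flow, stood at 228, 516 and 530 CPM on day 0, against 665, 506 and 534 CPM on day 14. The groups overlapped, since D0 replicates 2 and 3 lay among the D14 values and D0 replicate 1 alone was low. The log2 fold change was 0.42 (SE 0.32, interval −0.324 to 1.17; adjusted p = 0.565, edgeR). Without D0 replicate 1 it was 0.13. The interval includes no change as well as a rise to more than the doubled level, so these libraries do not settle the direction. Klf2 and Klf4 were not equally placed within the days: the log2 level of Klf2 above Klf4 was 1.05, 1.55 and 2.13 in the D0 libraries and 1.03, 1.11 and 1.08 in the D14 libraries. That difference was 0.50 lower at D14 (exact permutation test, two-sided p = 0.3, adjusted over 6 gene pairs 0.45), where 3 libraries against 3 can give no p below 0.1.

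Nos3 (chromosome 5, 24364810 to 24384474, plus strand) makes endothelial nitric oxide, which relaxes the underlying muscle. It stood at 40.1, 22.2 and 15.4 CPM on day 0, against 30.0, 34.1 and 34.4 CPM on day 14. The D0 libraries covered a range that held all D14 values, and D0 replicate 1 had the highest level of the 6. The log2 fold change of 0.34 (SE 0.32, interval −0.411 to 1.09; adjusted p = 0.647, edgeR) was 0.81 with D0 replicate 1 left out and 0.08 with D0 replicate 3 left out. Its exons overlap those of Atg9b and Gm15587 on the opposite strand, whose rows held 14 to 49 and 15 to 25 counts, against 219 to 689 for Nos3. The sources used here do not say whether counting used strand, so reads shared with those genes cannot be told apart.

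Thbd (chromosome 2, 148404466 to 148408188, minus strand), the receptor that turns thrombin into an activator of protein C, stood at 785, 630 and 368 CPM on day 0, against 856, 957 and 1042 CPM on day 14. All D14 libraries were above all D0 libraries, narrowly so between D0 replicate 1 and D14 replicate 1. The means were 594 ± 211 and 952 ± 93.2 CPM (SD, n = 3 each), with a log2 fold change of 0.68 (SE 0.28, interval 0.033 to 1.33; unadjusted p = 0.0418, adjusted p = 0.387, edgeR). D0 replicate 3, the library with the lowest summed level of endothelial identity genes, held the lowest Thbd level, and without it the log2 fold change was 0.43.

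Edn1 (chromosome 13, 42301476 to 42307990, plus strand) was 1 of the 2 tested activation genes with a lower D14 mean. It stood at 33.7, 30.0 and 61.0 CPM on day 0, against 28.8, 26.8 and 37.2 CPM on day 14. The days overlapped, and D0 replicate 3 was the highest by far, while the mean of the endothelial identity genes was lowest there. The log2 fold change was −0.43 (SE 0.29, interval −1.10 to 0.244; adjusted p = 0.522, edgeR) and −0.04 without that library.

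Icam1 (chromosome 9, 21015985 to 21028817, plus strand), the ligand of leukocyte beta 2 integrins, stood at 563, 673 and 629 CPM on day 0, against 558, 524 and 419 CPM on day 14. The highest D14 library lay just under the lowest D0 library, 558 against 563 CPM. The log2 fold change was −0.31 (SE 0.17, interval −0.719 to 0.092; adjusted p = 0.463, edgeR), and −0.20 without D14 replicate 3. Alveolar type 1 cells also make ICAM-1. Their marker Ager, singled out after its values were seen, averaged 1950 ± 568 CPM on day 0, against 1593 ± 328 CPM on day 14. Its library values overlapped between the days (adjusted p = 0.649, edgeR). In the list of 8 alveolar epithelial markers 7 had lower D14 values. The exception was Rtkn2, with 291 ± 95.4 and 301 ± 66.5 CPM. The summed level was 18170 to 42400 CPM on day 0, against 18100 to 24860 CPM on day 14. Sftpc alone had 12450 to 34630 CPM. The part of the alveolar epithelium in the Icam1 values was not tested. The antisense gene Gm47079 overlaps its exons, with 7 to 28 counts against 6536 to 10537 for Icam1.

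Vcam1 (chromosome 3, 116109949 to 116129688, minus strand), the ligand of the integrin alpha 4 beta 1, stood at 84.1, 68.6 and 69.8 CPM on day 0, against 97.1, 98.7 and 85.1 CPM on day 14. The days were separate by a small step, 84.1 against 85.1 CPM. The log2 fold change was 0.34 (SE 0.15, interval −0.009 to 0.680; adjusted p = 0.407, edgeR). Vcam1 and Icam1, which NF-kB can induce together, thus had means that lay on opposite sides of D0. The log2 level of Vcam1 below Icam1 went from −2.74, −3.29 and −3.17 in the D0 libraries to −2.52, −2.41 and −2.30 in the D14 libraries, a difference of 0.66 with no overlap (exact permutation test, two-sided p = 0.1, the smallest possible, and 0.3 adjusted over 6 pairs). A library's scaling factor cancels in such a ratio. With Vcam1 wholly higher and Icam1 wholly lower at D14, the lack of overlap in their ratio was fixed beforehand. It is therefore no further support.

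Vwf (chromosome 6, 125546774 to 125686679, plus strand), the multimeric protein that tethers platelets, stood at 348, 315 and 217 CPM on day 0, against 325, 382 and 419 CPM on day 14. The days overlapped and D0 replicate 3 was lowest. The log2 fold change was 0.36 (SE 0.21, interval −0.141 to 0.853; adjusted p = 0.486, edgeR), and 0.18 without that library. Selp (chromosome 1, 164115264 to 164150026, plus strand), its partner in the storage granule, was sparsely counted, with 40, 56 and 42 counts on day 0, against 49, 62 and 73 on day 14. These counts correspond to 2.33 to 3.58 CPM on day 0, against 2.84 to 4.68 CPM on day 14, with a log2 fold change of 0.37 (SE 0.31, interval −0.340 to 1.09; adjusted p = 0.595, edgeR), and 0.21 and 0.23 without D14 replicate 3 and D0 replicate 1 respectively. Platelets carry both proteins. The sum of 9 platelet and megakaryocyte markers was 50.2 to 75.4 CPM on day 0, against 64.0 to 85.1 CPM on day 14, 7 of 9 having higher D14 values, and its part in the Vwf and Selp values was not tested.

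Sele (chromosome 1, 164048234 to 164057677, plus strand), E-selectin, which endothelium makes only when activated, was close to the limit of detection. Counts of 3, 10 and 7 were found on day 0, against 11, 10 and 8 on day 14. The exact Poisson 95% intervals, which cover counting error only, ran from 0.619 to 8.77 for the library with 3 counts and from 5.49 to 19.7 for the library with 11. A difference between the days was not detectable at this depth: in a fit of all 29753 rows without a filter the log2 fold change was 0.48 (SE 0.58; adjusted p = 0.787, edgeR).

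**Figure D2:**
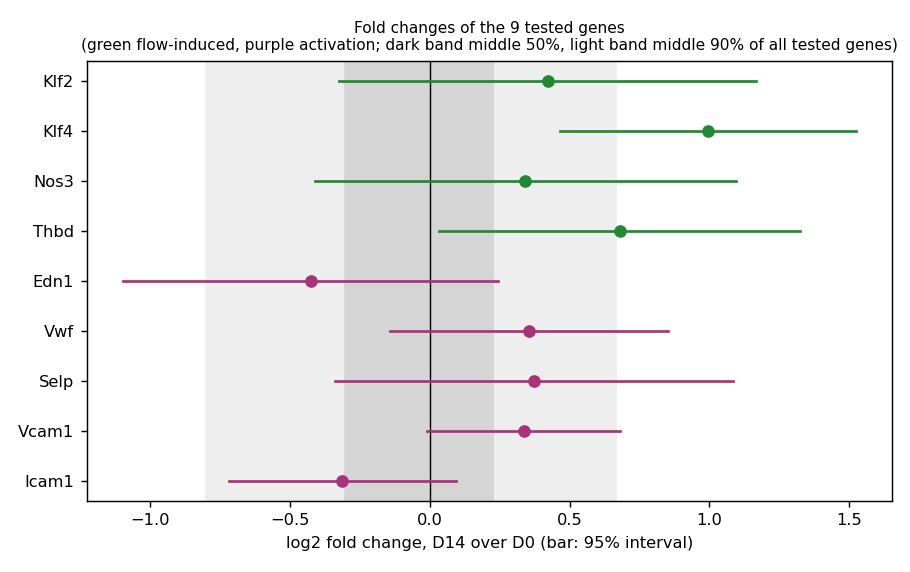
Log2 fold change at D14 over D0 of the 9 tested genes (points) with 95% intervals (bars) from the edgeR fit; the dark band holds the middle 50% of all tested genes (−0.30 to 0.23) and the light band the middle 90% (−0.80 to 0.67). Klf4 at 0.99 and Thbd at 0.68 lie outside the light band, and the intervals of these 2 genes alone stay above 0.

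Levels between the genes were compared as CPM per kilobase of the longest annotated transcript. At D0 Icam1 was highest with 245 ± 21.9, followed by Klf2 with 230 ± 92.4 and Thbd with 160 ± 56.7 (SD, n = 3), and these neighbours overlapped. Klf4 came next with 44.8 ± 11.6, then Vwf with 33.2 ± 7.73, Edn1 with 19.4 ± 7.92 and Vcam1 with 18.2 ± 2.11, each overlapping its neighbour. Nos3, with 6.26 ± 3.09, was below all of these, Selp had 0.858 ± 0.182 and Sele 0.149 ± 0.082, with no overlap between them. At D14 Klf2 had 308 ± 45.9, Thbd 256 ± 25 and Icam1 197 ± 28.6, so that Icam1 stood in place 3 instead of place 1. With the union of all annotated exons as the length, Icam1 was in place 3 on both days, because its longest transcript is shorter than that union (2535 against 4360 bases).

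The genes fell into separate patterns over the 6 libraries. Nos3, Thbd, Vwf and Vcam1 tracked the endothelial identity genes, with Pearson's r of log2 CPM of 0.974, 0.946, 0.886 and 0.833 with the mean of that list. Klf2, Sele and Selp did not, with r of −0.248, −0.219 and 0.089, and Klf4 lay between with 0.490. Icam1 and Edn1 ran opposite, with −0.658 and −0.738. Each r rests on 6 points that share scaling and the low endothelial level of D0 replicate 3, and is given as a description. Klf2, Klf4, Sele and Selp shared their lowest library, D0 replicate 1, where the endothelial mean log2 CPM was the highest of all, 8.41 against 7.44 to 8.37 elsewhere. For Sele, with 3 counts there and at most 11 elsewhere, the Poisson intervals of these counts overlap (0.619 to 8.77 and 5.49 to 19.7). Selp had 40 counts there, against 42 in D0 replicate 3. The patterns of Sele and Selp, and their r values, are thus limited by counting error. Dusp1, an immediate early phosphatase chosen for this comparison after its values were seen, had 163 CPM in that library and 469 to 721 CPM in the others, and its r with Klf2 and with Sele was 0.979 each.

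**Figure D3:**
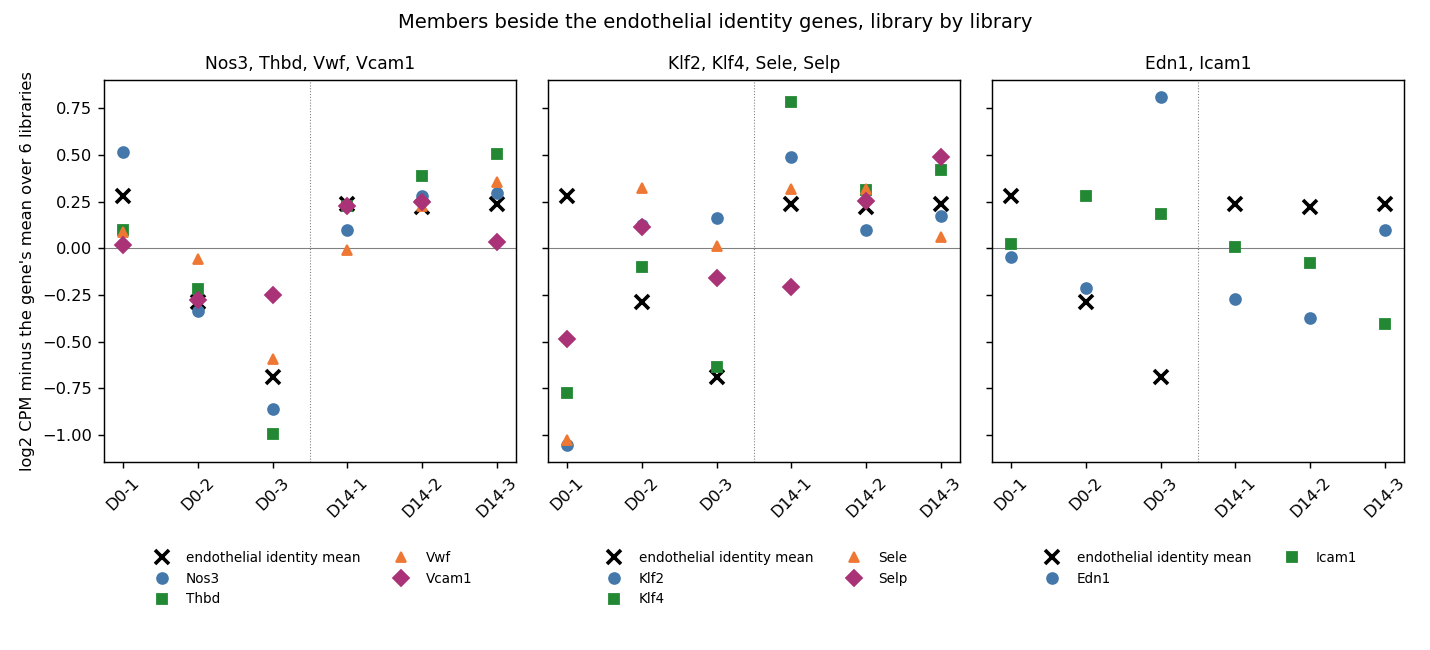
Log2 CPM of each gene minus its own mean over the 6 libraries, by library, with crosses for the mean of the 16 endothelial identity genes. Nos3, Thbd and Vwf are lowest, like the crosses, in D0 replicate 3, Klf2, Klf4, Sele and Selp are lowest in D0 replicate 1, and Edn1 is highest in D0 replicate 3. The points of Sele and Selp rest on low counts.

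Set against the endothelial identity genes of the same library, the differences between the days were smaller for most genes. On this scale, log2 CPM of the gene minus the mean log2 CPM of the 16 genes, 0 of the 10 genes had D14 values apart from the D0 values, where 1.05% of all tested genes lay wholly higher and 22.4% wholly lower at D14. Nos3 had −3.31 ± 0.205 at D0 and −3.32 ± 0.113 at D14, a difference of −0.014 (SD, n = 3; exact permutation test, two-sided p = 1). Vwf differed by −0.09, Vcam1 by −0.128, Selp by −0.114, Sele by −0.002 and Klf2 by 0.043. Thbd had 1.53 ± 0.142 at D14 against 1.25 ± 0.19 at D0, a difference of 0.277 (exact permutation p = 0.2, adjusted over the 10 genes 0.667). With Pecam1, Cdh5 and Tie1 alone as the reference that difference was 0.085. Klf4 differed by 0.543 (exact permutation p = 0.3, adjusted 0.75), with −1.63 in D0 replicate 1 and −0.51 to −0.02 in the other libraries, and the difference was 0.15 without that library. Edn1 and Icam1 lay lower, by −0.834 and −0.787 (each exact permutation p = 0.2, adjusted 0.667). Without D0 replicate 3 the difference of Edn1 was −0.292. For Icam1 the values were 0.73, 1.55 and 1.86 at D0 and 0.76, 0.68 and 0.34 at D14, so D0 replicate 1 lay within the D14 range.

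None of the surrounding pathway genes passed the threshold over all tested genes either (edgeR). At an unadjusted p under 0.05 on the higher side, where 5.48% of all tested genes stood, were 2 of 18 flow sensing genes, 3 of 12 nitric oxide pathway genes, 1 of 5 endothelin genes and 5 of 14 anticoagulant or fibrinolytic genes. The remaining lists had 1 of 13 Weibel-Palade genes, 0 of 17 adhesion partners, 3 of 22 NF-kB genes and 4 of 12 Krueppel-like factors there. On the lower side, where 7.09% of all tested genes stood, were 3 of 22 NF-kB genes, 1 of 5 endothelin, 1 of 14 anticoagulant and 1 of 13 Weibel-Palade genes. In the list for flow sensing and the MEK5-ERK5-MEF2 route, 14 of 18 tested genes were higher and 4 lower at D14, with a median log2 fold change of 0.22 against −0.03 over all tested genes. Pecam1, a junctional part of the flow sensor, averaged 568 ± 201 CPM on day 0, against 941 ± 91.5 CPM on day 14 (SD, n = 3; log2 fold change 0.73, adjusted p = 0.365, edgeR). Kdr, the VEGF receptor of the same sensor, averaged 424 ± 190 and 651 ± 18.6 CPM, and the G protein subunit Gnaq 101 ± 24.8 and 145 ± 6.71 CPM. Pecam1 and Kdr also belong to the 16 endothelial identity genes, whose median log2 fold change was 0.49. The 4 kinases of the route, given after their values were seen, were split: Map3k2 had 60.2 ± 13.1 and 69.8 ± 3.38 CPM and Map3k3 80.6 ± 37.6 and 104 ± 10.9 CPM, while Map2k5 (MEK5) had 26.3 ± 1.54 and 23.0 ± 1.36 CPM and Mapk7 (ERK5) 29.7 ± 11.2 and 27.0 ± 1.15 CPM. Of 12 tested nitric oxide pathway genes 9 were higher (median 0.32). Pde5a, which degrades cyclic GMP, had 174 ± 74.9 and 333 ± 31.2 CPM, and Gucy1b1, a subunit of the nitric oxide receptor, 150 ± 45.6 and 243 ± 17.0 CPM. Its partner subunit Gucy1a1 had 175 ± 61.8 and 269 ± 29.0 CPM. Of 5 tested endothelin genes 4 were higher (median 0.52), among them Ece1, the converting enzyme, with 345 ± 141 and 518 ± 37.6 CPM, and Mme, which degrades endothelins, with 160 ± 18.1 and 215 ± 24.4 CPM. Edn3, a sister peptide, was lower like Edn1, with 41.7 ± 7.96 and 28.3 ± 1.78 CPM.

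Beside Thbd, 11 of 14 tested anticoagulant and fibrinolytic genes had higher D14 values (median 0.32). Plat, tissue plasminogen activator, came closest to the threshold, with 30.8, 35.1 and 34.6 CPM on day 0, against 66.6, 78.6 and 69.9 CPM (log2 fold change 1.10, SE 0.14; adjusted p = 0.0831, edgeR). F2r, the thrombin receptor PAR1, had 249 ± 10.4 and 375 ± 40.8 CPM, and Pros1, protein S, 89.7 ± 21.7 and 120 ± 7.58 CPM. Among 13 tested partners of Weibel-Palade bodies and Vwf, 9 were higher (median 0.10), Plat, which these granules also store, being counted here too. The membrane proteins Vamp8 and Cd63 were lower, with 225 ± 74.9 and 144 ± 34.2 CPM for Vamp8 and 154 ± 59.2 and 132 ± 15.5 CPM for Cd63.

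Of 17 tested ligands and partners of the adhesion molecules 10 were higher and 7 lower (median 0.13). Itgb1, the beta chain of the VCAM-1 receptor, averaged 692 ± 132 CPM on day 0, against 923 ± 8.63 CPM. Esam, an endothelial adhesion molecule that is also in the endothelial identity list, had 291 ± 4.94 and 361 ± 42.4 CPM. Msn, moesin, which anchors ICAM-1 and VCAM-1 to actin, had 1350 ± 262 and 1560 ± 65.5 CPM. Of 22 tested genes of NF-kB activation 13 were higher and 9 lower (median 0.12), with members far apart in either direction. Tnfaip3 (A20), which restrains NF-kB, had 34.3 ± 2.12 and 57.6 ± 1.55 CPM (log2 fold change 0.75, adjusted p = 0.199, edgeR), and the inhibitor Nfkbia 185 ± 75.9 and 293 ± 13.5 CPM. Traf1, an adaptor of TNF receptors, was lower, with 80.0 ± 0.873 and 44.4 ± 11.3 CPM (log2 fold change −0.85, adjusted p = 0.326, edgeR), and the receptor Tnfrsf1a had 151 ± 9.94 and 151 ± 14.1 CPM. The Krueppel-like factors other than Klf2 and Klf4 were higher in 11 of 12 tested genes (median 0.45), including Klf9 with 164 ± 44.6 and 336 ± 67.0 CPM, Klf3 with 145 ± 39.4 and 233 ± 10.1 CPM and Klf6 with 305 ± 94.3 and 381 ± 22.7 CPM.

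**Figure D4:**
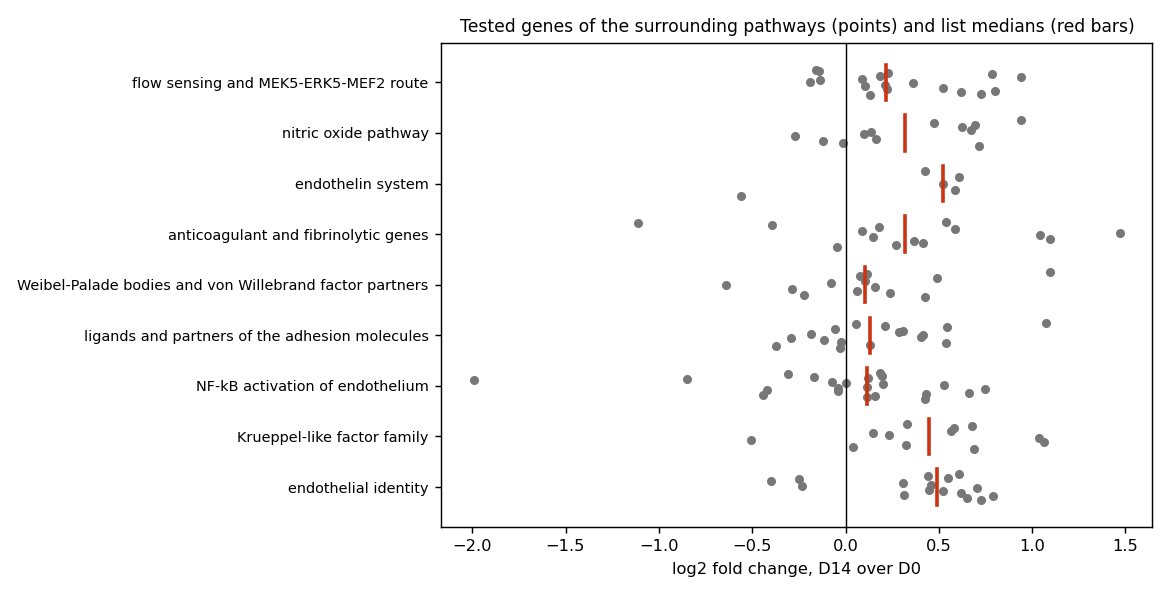
Log2 fold change at D14 over D0 of the tested genes in 8 pathway lists and in the endothelial identity list (grey points), with each list's median (red bars). All 9 medians lie above 0, from 0.10 for the Weibel-Palade list to 0.52 for the endothelin list, and the endothelial identity list has a median of 0.49. Pecam1, Kdr and Esam are in a pathway list and in the endothelial identity list.

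The endothelial identity genes were themselves higher at D14 in 13 of 16 cases, against 46.9% of all tested genes, with a median log2 fold change of 0.49. None passed the threshold, and 5 of 16 stood on the higher side at an unadjusted p under 0.05, against 5.48% of all tested genes (edgeR). By vessel type, 5 of 6 aerocyte genes (median 0.41), 6 of 6 general capillary genes (0.34), 2 of 6 arterial genes (−0.06), 2 of 4 venous genes (0.16) and 6 of 7 lymphatic genes (0.48) were higher. Ackr1, a receptor of venules, where P-selectin and E-selectin are mainly displayed, was near the detection limit at 0.192 to 1.08 CPM and was not tested. The sum of 5 leukocyte genes ran from 543 to 728 CPM at D0 and from 446 to 551 CPM at D14, beside the Icam1 and Vcam1 values above, and the part of leukocytes in those values was not tested.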

How the data were processed

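In the table deposited by the authors, each gene symbol has an estimated count in each of 6 lung libraries, with totals that differ and no sign of scaling. HISAT2 2.1.0, CASAVA 1.8, edgeR and StringTie 1.3.4b, with the build GRCm38, are named in the submitters' processing notes. The sources used here do not give their roles, the counting step or its use of strand. Of 29757 lines, 4 with empty or displaced values were left out, and 50 repeated symbols were kept as separate rows. There were 0 columns outside the samples. The counts, all whole, were tested with edgeR 4.0.16 in R 4.3.3 (TMM, default filter, robust quasi-likelihood F test, two-sided, Benjamini-Hochberg over 17686 genes, threshold 0.05), which was also tested on simulated data. Log2 CPM used a prior count of 2. Of 241 listed symbols, 240 had a row. Genes, lists and tests were chosen with earlier results of these data known. Beside all members, the 2 most abundant genes of a pathway list and the 2 with the smallest p are named, except 1 that is not reported here, and a few others were chosen after their values were seen. Positions and lengths are from GENCODE for GRCm38. Alternatives were DESeq2 1.42.0, limma-voom 3.58.1, other scaling and filters, a replicate block, each library left out, and a sum of repeated symbols, chosen after seeing the data. SEs were the log2 fold change divided by the square root of F, and 95% intervals used the t distribution of the fit.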

Additional observations from a re-analysis of the deposited data

How the results depend on the processing

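The direction of all 9 tested genes was the same in 15 alternative settings, and 1 call was made among them, Klf4 with DESeq2 (members called 1 in place of 0). The count of genes called over the whole table, 6, was 274 with DESeq2, 26 with no low count filter, 0 with a replicate block and 0 to 22 with each library left out (D0 replicates 1, 2 and 3 gave 3, 1 and 22, and each D14 replicate 0). The median of the activation genes was 0.18 to 0.32 in those fits, lowest without D0 replicate 3. The cause was not tested. Same-numbered libraries did not deviate together (r of 0.119, −0.055 and −0.097), so the block has no support beyond the number. D0 replicate 1 correlated best with its own number, the others did not. With Pecam1, Cdh5 and Tie1 as the endothelial reference, all 10 relative differences were lower by the same amount. That common shift follows from the subtraction and describes the reference genes, not the members. The values were Klf2 −0.149, Klf4 0.352, Nos3 −0.206, Thbd 0.085, Edn1 −1.03, Vwf −0.281, Sele −0.194, Selp −0.306, Vcam1 −0.320 and Icam1 −0.979. Relative to the full list, Klf2 was −0.614 without D0 replicate 1 and −0.073 without D14 replicate 1. Sele was 0.118 with a prior count of 0.5. With 1 library left out, this scale ran from −0.614 to 0.482 for Klf2, −0.101 to 0.099 for Nos3, −0.209 to 0.013 for Vwf, −0.658 to 0.349 for Sele, −0.525 to 0.125 for Selp and −0.292 to 0.061 for Vcam1. Selp and Sele are limited by their counts.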

Other observations

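The genes whose log2 CPM ran most closely with each member over the 6 libraries, among at least 11900 protein-coding genes with a mean of 5 CPM or more, were mostly not endothelial markers. Klf2 was closest to Hnrnpf, an RNA-binding protein (Pearson's r 0.992), and Dusp1 (0.979), and Klf4 to Fam129a (0.998) and Scarb2 (0.982). Thbd was closest to Lrp5, a Wnt co-receptor, and Edem3 (each 0.9985), and 1347 genes had an r over 0.9 with it, against 68 for Klf2. Edn1 was closest to Pf4, a platelet chemokine (0.993), which stood at 33.9 CPM in D0 replicate 3, against 16.3 to 21.0 CPM. Sele was closest to Klf6 (0.997), which stood at 200 CPM in D0 replicate 1, against 331 to 395 CPM. Sele itself had only 3 to 11 counts per library. Icam1 was closest to Lancl1 and Wdr6 (each 0.989). With 6 points and many candidates, high values of r are frequent, and these are descriptions.

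Among the 6 pairs of members compared as log2 differences within a library, Thbd over Vwf was the other pair whose days did not overlap, with 1.18, 1.00 and 0.76 at D0 and 1.40, 1.32 and 1.32 at D14 (exact permutation test, two-sided p = 0.1, the smallest possible; adjusted over 6 pairs 0.3). The log2 level of Nos3 over Edn1, a dilator set against a constrictor, was 0.25, −0.44 and −1.98 at D0 and 0.06, 0.35 and −0.11 at D14 (exact permutation p = 0.3; adjusted 0.45).

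Markers of other cells that a lung holds were also read, and none passed the threshold. All 4 B cell genes had lower D14 values, with a median log2 fold change of −0.98 and a summed level of 117 to 206 CPM at D0 and 71.9 to 97.2 CPM at D14. T cell genes were lower in 4 of 5 cases (median −0.29), neutrophil genes higher in 5 of 6 (median 0.19), and monocyte and macrophage genes were split 4 to 4 (median −0.01). Smooth muscle and pericyte genes, in the wall beside the endothelium, were higher in 4 of 6 cases (median 0.48), with summed levels of 484 to 558 CPM at D0 and 582 to 631 CPM at D14. Airway genes were higher in 3 of 4 cases (median 0.34), fibroblast genes in 2 of 5 (median −0.02) and mesothelial genes in 1 of 3 (median −0.57).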
